A study of Mus musculus with 6 samples.

Results

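Myeloid C-type lectin receptors are membrane proteins with which macrophages, neutrophils and dendritic cells recognise sugars and lipids of microbes and of damaged cells. The group described here holds 10 mouse genes taken by symbol, Clec4n, Clec4d, Clec4e, Clec7a, Clec4a1, Clec4a2, Clec4a3, Clec12a, Clec5a and Clec10a, and all 10 were found by their Ensembl identifiers among the 23504 genes of the expression table. The set was assembled with the higher level of Clec4n under DASA-58 already known. For this reason the differences between the groups are given for these 10 genes as a description, without p-values of their own, and where they are counted or coloured by the limit of the fit over all genes this describes the fit and is no evidence for the set.

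The samples were 6 RNA-seq libraries of bone marrow–derived macrophages (BMMs), which are macrophages grown in M-CSF from the marrow of C57BL/6 mice (young males, according to the methods of the study). Of these, 3 were treated with DASA-58, a small molecule that activates the pyruvate kinase isoform PKM2, together with RANKL, the cytokine that turns such cells into osteoclasts. The other 3 received an equal volume of the solvent DMSO, and RNA was taken after 3 days. The study's results place RANKL in both groups, while its methods name it only beside the compound. Osteoclast markers, given below, were expressed in both groups, at summed levels of 758 to 811 FPKM with DMSO and 435 to 452 FPKM with DASA-58. The concentration of DASA-58 is not stated for this experiment. The study calls the libraries of a group replicates without saying whether they came from separate cultures or animals, so p-values measure only the spread between these samples, which may be technical.

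Activating receptors of this family couple to adaptors with an immunoreceptor tyrosine-based activation motif (ITAM), recruit the kinase SYK and signal through CARD9, BCL10 and MALT1 to NF-kB. Clec4n encodes Dectin-2, a receptor for fungal mannans, Clec4d encodes MCL, and Clec4e encodes Mincle, a receptor for mycobacterial cord factor, and each of the 3 works through the Fc receptor gamma chain encoded by Fcer1g. Clec7a encodes Dectin-1, the receptor for beta-glucans, which carries its own activating motif, and Clec5a encodes MDL-1, which pairs with DAP12, the product of Tyrobp. Clec4a2 encodes DCIR and Clec12a encodes MICL, both of them inhibitory receptors with an immunoreceptor tyrosine-based inhibition motif (ITIM). Clec4a1 and Clec4a3 are close relatives of DCIR, and Clec10a encodes MGL1, a receptor for galactose-type sugars.

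In the GENCODE annotation of GRCm38, 9 of the 10 genes lie on chromosome 6 and Clec10a lies on chromosome 11. A group of 6 receptors spans 368 kilobases (chr6:122921848-123289870) in the order Clec4a1, Clec4a3, Clec4a2, Clec4n, Clec4d and Clec4e, with Clec4n at chr6:123229843-123247021, Clec4d at chr6:123262111-123275265 and Clec4e at chr6:123281789-123289870. Of these 6 genes, Clec4e alone is read from the minus strand. Clec12a and Clec7a lie farther along the same chromosome, from 129342691 and from 129461591, Clec5a lies apart from them, from 40574894, and Clec10a runs from 70156197 to 70170834 on chromosome 11. The annotation lists 9 of the 10 as protein coding and Clec7a as a polymorphic pseudogene. The values cover whole genes and do not separate exons or transcripts.

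The 250 bases before the start site are printed for 3 receptors that behaved differently, namely Clec4d, which was higher with DASA-58, its neighbour Clec4e, which was lower, and Clec12a, whose groups overlapped. They were taken from RefSeq (GRCm38.p6), which held such windows for 8 of the 10 receptors, without Clec4n and Clec10a, and are read towards the gene on its own strand. The RefSeq start of Clec12a lies inside the gene as GENCODE annotates it, which begins at 129342691, so its window is upstream of the RefSeq start only. Capitals mark matches, on either strand, to the letters of myeloid and stress-related motifs, namely GAGGAA (the core of PU.1 sites), TTGCNNAA (C/EBP), TGANTCA (AP-1), CANGTG (E-box of the MITF family), TGACNNNGC (antioxidant element) and the NF-kB motif.
Clec4d (chr6:123261857-123262106, + strand): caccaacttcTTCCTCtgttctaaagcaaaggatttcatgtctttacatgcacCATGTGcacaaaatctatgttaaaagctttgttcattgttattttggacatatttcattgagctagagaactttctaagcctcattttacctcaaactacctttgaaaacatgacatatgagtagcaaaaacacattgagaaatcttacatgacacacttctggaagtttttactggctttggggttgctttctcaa
Clec4e (chr6:123289872-123290121, - strand): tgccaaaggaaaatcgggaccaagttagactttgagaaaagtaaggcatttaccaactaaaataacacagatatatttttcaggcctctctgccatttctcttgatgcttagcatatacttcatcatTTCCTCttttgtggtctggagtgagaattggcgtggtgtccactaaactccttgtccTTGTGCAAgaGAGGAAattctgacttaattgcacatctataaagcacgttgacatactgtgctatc
Clec12a (chr6:129349994-129350243, + strand): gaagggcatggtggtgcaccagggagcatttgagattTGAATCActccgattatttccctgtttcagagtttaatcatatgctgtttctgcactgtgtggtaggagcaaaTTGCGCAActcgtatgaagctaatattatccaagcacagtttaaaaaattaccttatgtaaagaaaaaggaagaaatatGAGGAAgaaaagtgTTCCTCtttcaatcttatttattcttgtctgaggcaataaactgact

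The PU.1 letters were present for 7 of the 8 receptors, in 8 of their 10 windows (80.0%), against 23.3% of the 32851 windows of this length in the whole RefSeq table. These windows are not separate, since the 2 of Clec7a overlap and hold the same match, and the 2 of Clec4a3 overlap and share a CANGTG match. Some also hold bases inside the GENCODE gene. The Clec4a2 window (chr6:123122440-123122689), which had no PU.1 letters, lies within its gene, which begins at 123106428. The later Clec4a3 window runs past the start of its gene at 122952515, and the Clec5a window overlaps its gene, which ends at 40585821. The CANGTG letters were present in 5 of the 10 windows, against 39.5% of all windows. The C/EBP letters stood before Clec4e, from base 66 before the start, and before Clec12a, from base 140 before the start, which makes 2 of the 10 windows against 9.56% of all. The AP-1 letters were found before Clec12a only, against 6.75% of all windows. The loose NF-kB letters, which are common for this reason, were found before Clec4a1 only, against 45.8% of all windows. The letters of the antioxidant element were in 0 of the 10 windows, against 10.2%. These are matches of letters, and binding was not measured. The Clec4d window held 1 PU.1 match at base 240 before the start, and the Clec4e window held 2, at bases 123 and 56.

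The unit of the table is FPKM, that is, fragments scaled to gene length and to library depth, so levels of different genes can be compared. Between 18191560 and 18968556 fragments per library were recovered from the steps of the values. All 10 receptors had whole fragment numbers in each library, with at least 549 fragments. Pkm, whose PKM2 isoform DASA-58 activates, stood at 575 ± 9.70 in the DMSO and 575 ± 6.09 FPKM in the DASA-58 libraries (SD, n = 3 each). As values of the whole gene, they do not show the level of that isoform. The macrophage markers Adgre1, Csf1r, Cd68, Itgam and Lyz2 were all expressed, Csf1r at 322 ± 2.92 FPKM with DMSO (SD, n = 3), and all 7 dendritic cell markers were below a mean of 1 FPKM.

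Clec4n was the receptor with the largest difference. Its level was 61.8, 58.3 and 60.3 FPKM in DMSO replicates 1, 2 and 3 and 112, 109 and 111 FPKM in DASA-58 replicates 1, 2 and 3. All DASA-58 libraries lay far above all DMSO libraries, with 2803 to 2994 fragments against 1559 to 1610. The mean rose 1.84-fold, from 60.1 ± 1.75 to 110.4 ± 1.75 FPKM (SD, n = 3 each), and the log2 fold change on log2(FPKM + 1) was 0.87 (standard error 0.031, limma). Among the 10965 genes that averaged 1 FPKM or more over the libraries and were fitted together, only 7 had a larger log2 fold change, Clec4n being number 8 from the top.

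Clec4d, the next gene on the chromosome, was the most abundant receptor of the group in both conditions. It stood at 389.9, 398 and 408 FPKM in the DMSO libraries and at 516, 538 and 531 FPKM in the DASA-58 libraries. Again each DASA-58 library exceeded each DMSO library. The mean went from 399 ± 9.15 to 528 ± 11.4 FPKM (SD, n = 3 each), 1.32-fold, with a log2 fold change of 0.40 (standard error 0.028, limma). Because of its high level, its difference of 129.5 FPKM was larger than the 50.2 FPKM of Clec4n, although its fold change was smaller.

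Clec4e, which lies beside Clec4d, moved in the other direction. It measured 12.4, 13.1 and 13.98 FPKM with DMSO and 10.1, 10.9 and 9.77 FPKM with DASA-58. All DASA-58 libraries lay below all DMSO libraries, on 920 to 988 fragments against 1130 to 1264. Its mean was 13.2 ± 0.791 in the DMSO and 10.3 ± 0.601 FPKM in the DASA-58 libraries (SD, n = 3 each), a ratio of 0.781, and on the log2 scale it fell by 0.33 (standard error 0.056, limma).

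**Figure D1:**
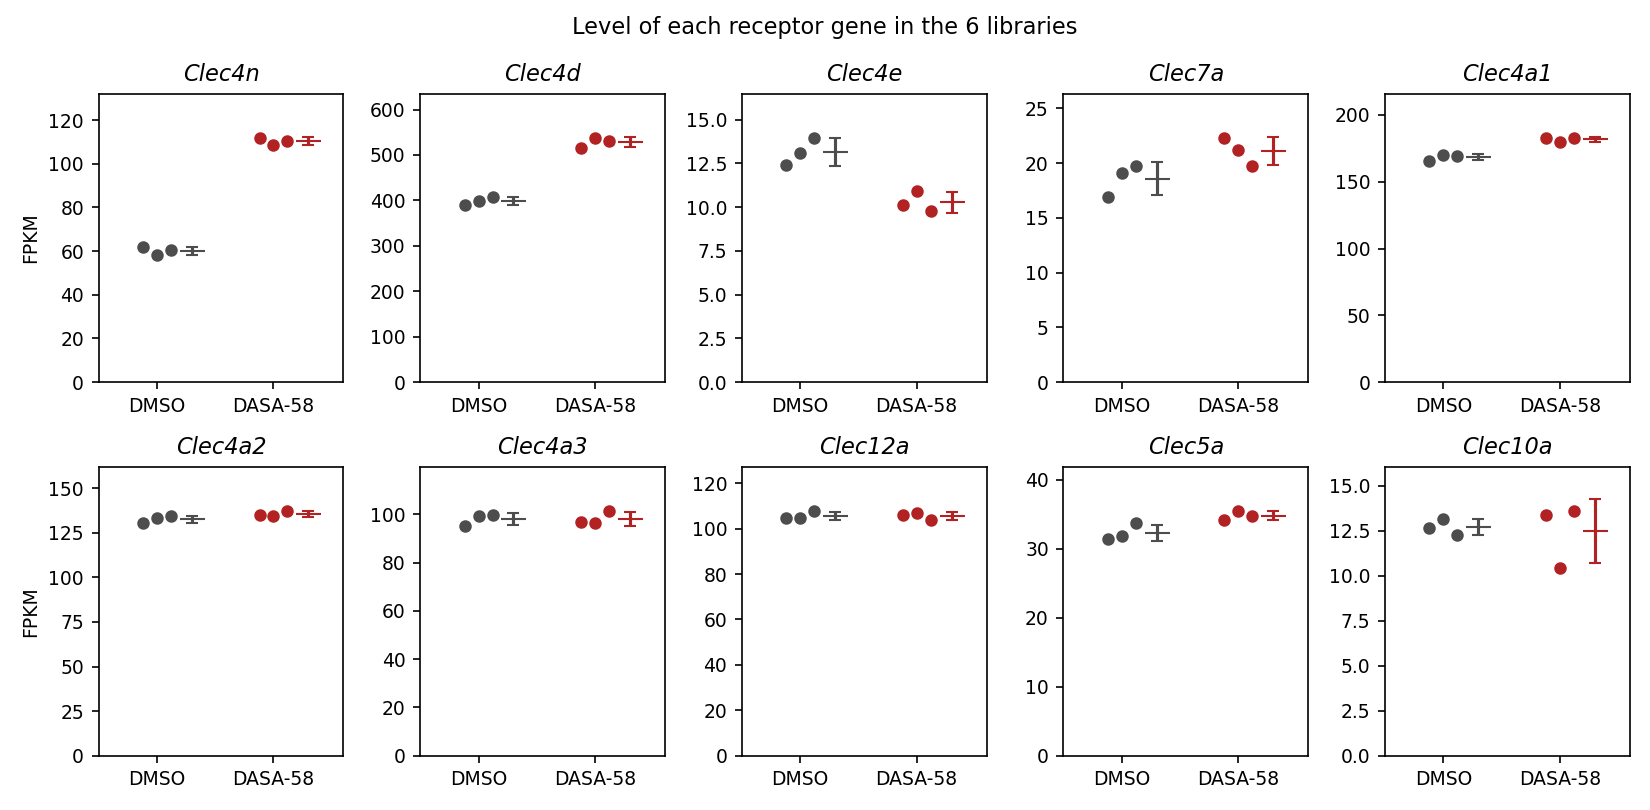
FPKM (vertical axes, from 0) of each of the 10 receptor genes in the 3 DMSO libraries (grey points) and the 3 DASA-58 libraries (red points), with the mean and SD of each group beside them. Clec4n sits at 58.3 to 61.8 FPKM with DMSO and at 109 to 112 FPKM with DASA-58, Clec4e is lower with DASA-58, and the groups of Clec4a3, Clec12a and Clec10a overlap.

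Ratios between these 3 neighbours within a library are not changed by a single scaling factor per library. Clec4n amounted to 15.8%, 14.6% and 14.8% of the Clec4d level in the DMSO libraries and to 21.7%, 20.2% and 20.8% in the DASA-58 libraries. There were 4.98, 4.46 and 4.31 times as many FPKM of Clec4n as of Clec4e with DMSO, and 11.1, 9.92 and 11.3 times as many with DASA-58. Clec4d exceeded Clec4e 30.4 ± 1.12 times with DMSO and 51.5 ± 2.60 times with DASA-58 (SD, n = 3 each). For each of these ratios the groups did not overlap.

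The relatives of DCIR differed little. Clec4a1 stood at 166, 169.95 and 169 FPKM with DMSO and at 182, 179 and 183 FPKM with DASA-58, a small difference with no overlap (log2 fold change 0.11, standard error 0.024, limma). For Clec4a2 the libraries gave 130.3, 133 and 134 FPKM with DMSO and 135, 135 and 137 FPKM with DASA-58. Its groups were separated by less than 1% of the level, and its log2 fold change was 0.032 (standard error 0.025, limma). Clec4a3 was at 98.0 ± 2.44 in the DMSO and 98.1 ± 2.85 FPKM in the DASA-58 libraries (SD, n = 3 each), and its groups overlapped.

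The other 3 protein-coding genes between these receptors, Clec4a4, Clec4b1 and Clec4b2, which encode further relatives of DCIR and were chosen by position, were low. Clec4a4 had 3.29 ± 0.685 in the DMSO and 3.27 ± 0.0567 FPKM in the DASA-58 libraries, and Clec4b1 had 1.29 ± 0.294 and 1.41 ± 0.265 FPKM (SD, n = 3 each). Clec4b2 had a mean of 0.185 FPKM in the DMSO and 0.271 FPKM in the DASA-58 libraries and was not tested. Among the tested genes described within the 368 kilobases, the differences beyond 0.2 on the log2 scale were thus those of Clec4n, Clec4d and Clec4e, which are direct neighbours at its end.

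**Figure D2:**
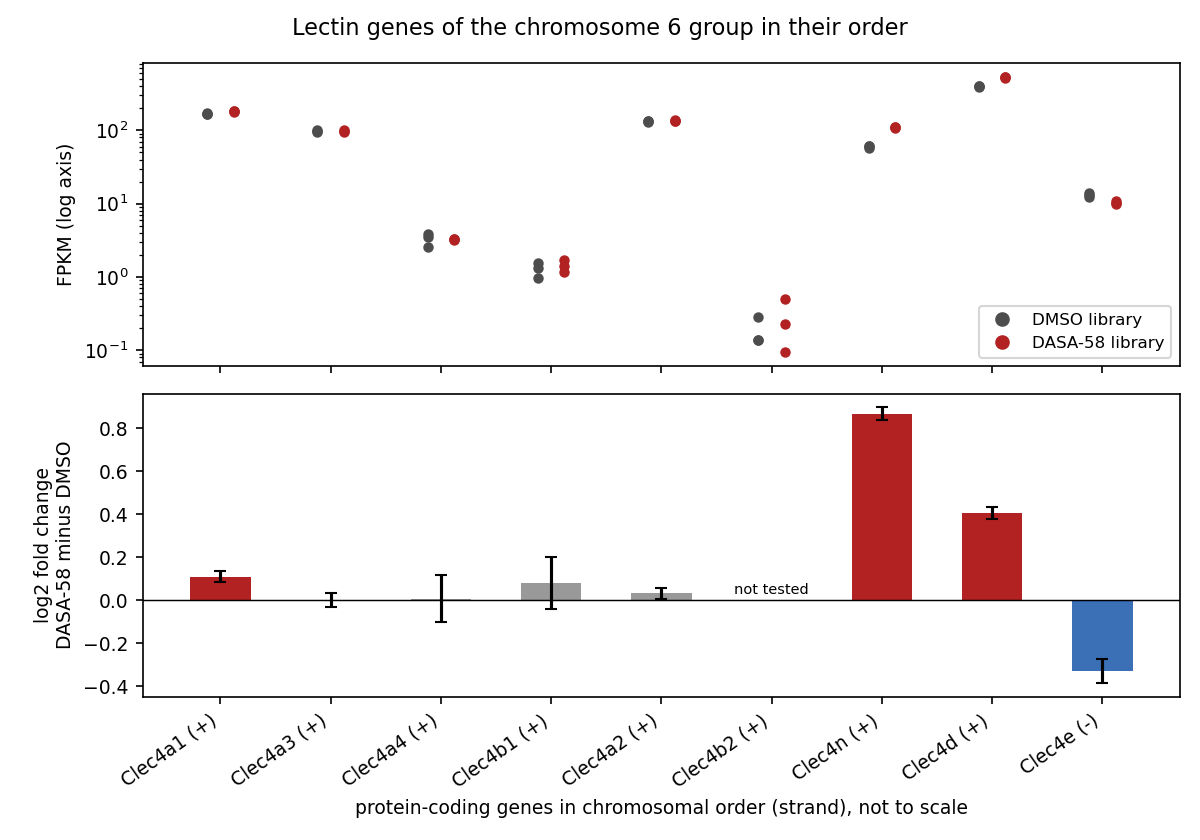
Protein-coding genes of the chromosome 6 group in their order along the chromosome, with strand, not to scale. The upper part gives FPKM on a log axis for each DMSO (grey) and DASA-58 (red) library, and the lower part gives the log2 fold change with its standard error, red for higher and blue for lower at an adjusted p under 0.05. Clec4n (0.87), Clec4d (0.40) and Clec4e (-0.33) stand together at the right end, and Clec4b2 was too low for the fit.

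Clec7a, the gene of Dectin-1, stood at 16.9, 19.1 and 19.7 FPKM with DMSO and at 22.3, 21.2 and 19.7 FPKM with DASA-58. The lowest DASA-58 library lay just above the highest DMSO library, by 19.725 against 19.714 FPKM. Its mean ratio was 1.14 and its log2 fold change 0.18 (standard error 0.065, limma). That was number 699 from the top of the 10965 genes, above their 75th percentile of 0.049 and below their 95th of 0.20. Clec5a, the gene of the DAP12-coupled MDL-1, had 31.4, 31.8 and 33.7 FPKM with DMSO and 34.1, 35.5 and 34.7 FPKM with DASA-58. Its groups did not overlap, and its log2 fold change was 0.10 (standard error 0.036, limma).

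Clec12a, the gene of the inhibitory MICL, was at 106 ± 1.81 in the DMSO and 106 ± 1.62 FPKM in the DASA-58 libraries (SD, n = 3 each), on 10629 to 11044 fragments. With this depth its log2 fold change of -0.0020 had a standard error of 0.027 (limma). Clec10a was low and uneven, with 12.6, 13.1 and 12.3 FPKM in the DMSO libraries and 13.4, 10.4 and 13.6 FPKM in the DASA-58 libraries. DASA-58 replicate 2 stood below the other 5 libraries, with 549 fragments against 648 to 747, and the log2 fold change was -0.032 (standard error 0.090, limma). Of the 50-base stretches of Clec10a transcripts, 9.02% also occur in transcripts of other genes, chiefly Mgl2, and 6.69% of those of Clec4a2 occur elsewhere, chiefly in Clec4b1 and Clec4a4. For the other 8 receptors this share was at most 0.686%.

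In the fit over all 10965 genes, 3 of the 10 receptors were past an adjusted p under 0.05 in the higher direction (Clec4n, Clec4d and Clec4a1), where 4.24% of all genes were, and 1 in the lower direction (Clec4e), where 7.28% of all genes were (limma, Benjamini-Hochberg adjustment). The groups did not overlap for 6 higher and 1 lower receptor, against 11.8% and 21.6% of all genes, which makes 7 in either direction against 33.4%. The median log2 fold change was 0.068 over the 10 receptors and -0.028 over all genes tested. As the set was chosen on this contrast, nothing is read from these shares. Clec4a1 was past the limit in 9 of 16 alternative fits, and it was not when DMSO replicate 1 or DASA-58 replicate 1, 2 or 3 was left out, with log2 fold changes of 0.098, 0.11, 0.12 and 0.10. Over all genes, 465 were higher and 798 lower, but 599 and 588 after quantile normalization, 597 and 504 after centring on the median and 386 and 958 at equal library totals. Under these scalings the log2 fold changes of Clec4a3, Clec12a and Clec10a stayed within 0.05 of 0 and the first 2 changed sign. Clec4a3 was also below 0 without DMSO replicate 1 or DASA-58 replicate 3, Clec12a above 0 without DMSO replicate 3 or DASA-58 replicate 3, and Clec10a at 0.082 without DASA-58 replicate 2.

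**Figure D3:**
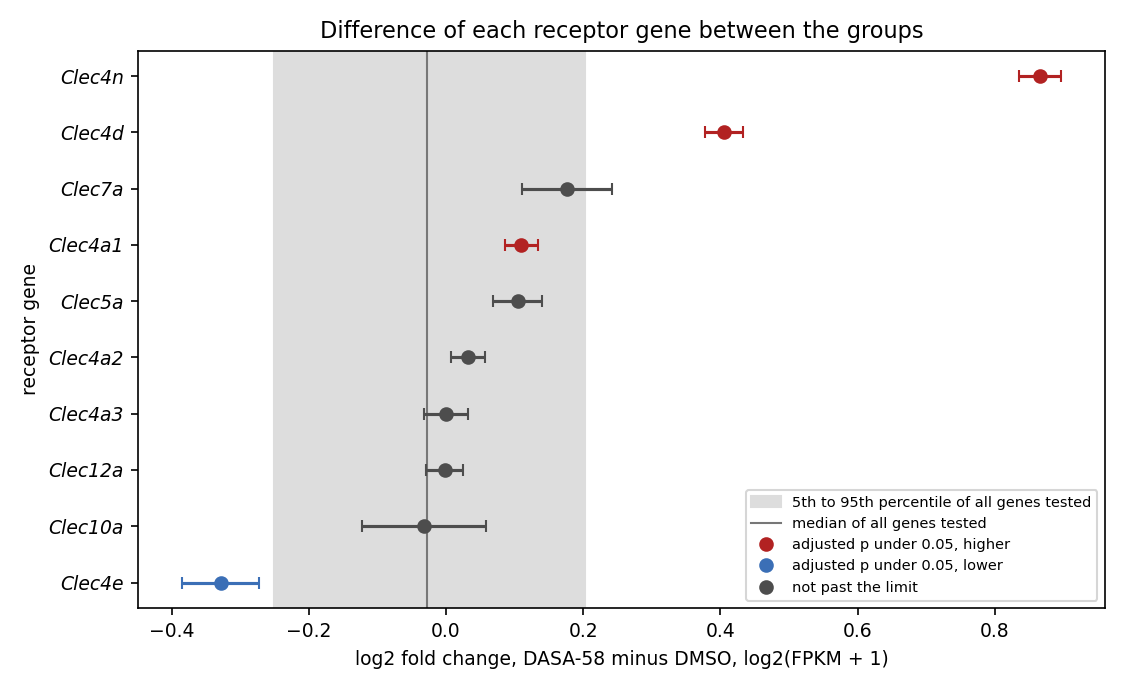
Log2 fold change (DASA-58 minus DMSO, on log2(FPKM + 1)) of the 10 receptors as points with the standard error as bars, red for higher and blue for lower at an adjusted p under 0.05. The grey band runs from the 5th to the 95th percentile of all genes tested (-0.25 to 0.20) and the line marks their median. Clec4n, Clec4d and Clec4e lie outside the band, and the other 7 lie inside it.

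The order of levels with DMSO was Clec4d, Clec4a1, Clec4a2, Clec12a, Clec4a3, Clec4n, Clec5a, Clec7a, Clec4e and Clec10a, from 399 down to 12.7 FPKM. Neighbours in this order did not overlap, apart from Clec4e and Clec10a. With DASA-58, Clec4n moved from place 6 to place 4, above Clec12a and Clec4a3, and Clec10a and Clec4e, which again overlapped, exchanged the last places. The summed level of the 10 genes was 1021, 1041 and 1059 FPKM in the DMSO libraries and 1228, 1242 and 1245 FPKM in the DASA-58 libraries. Without Clec4n and Clec4d the sum was 581 ± 10.95 in the DMSO and 599 ± 4.04 FPKM in the DASA-58 libraries (SD, n = 3 each). Clec4d alone made up 38.3% ± 0.181 of the sum with DMSO and 42.7% ± 0.664 with DASA-58, and the share of Clec4n was 5.78% ± 0.238 and 8.91% ± 0.193 (SD, n = 3 each).

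**Figure D4:**
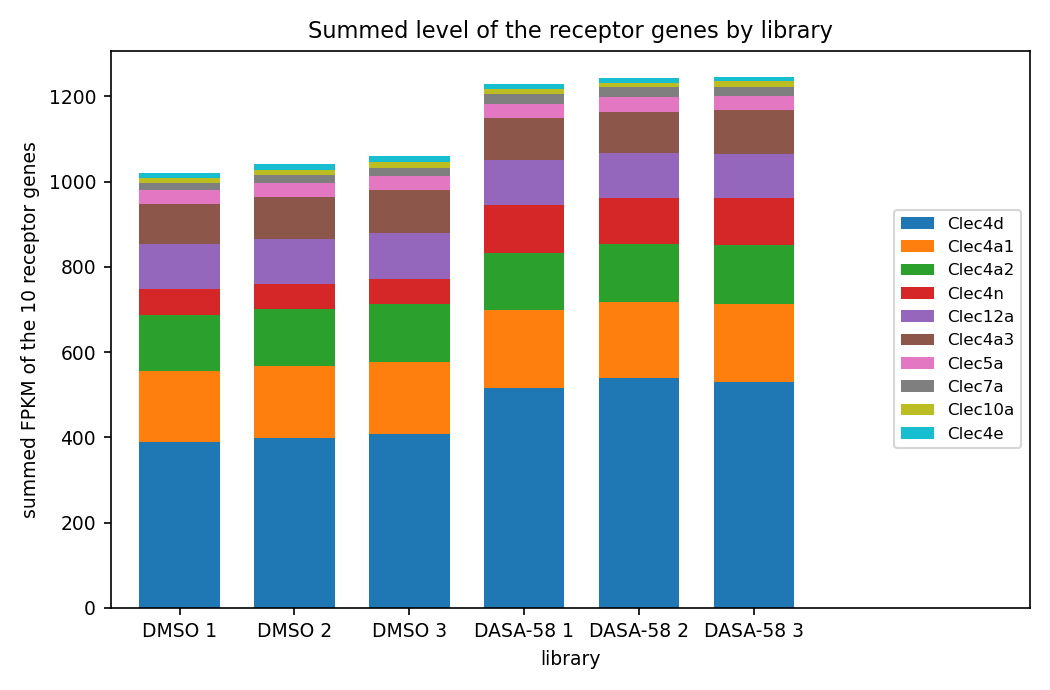
Summed FPKM of the 10 receptor genes in each library, from 0, with 1 colour for each gene. The DASA-58 libraries reach 1228 to 1245 FPKM and the DMSO libraries 1021 to 1059 FPKM, and Clec4d is the largest part of each bar.

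The coding sequences of the receptors shared between 40.0% (Clec5a and Clec10a) and 69.8% (Clec4a1 and Clec4a3) of their bases in global alignments. The share was counted against the longer sequence of each pair, so unequal lengths lower it (570 bases for Clec5a, 924 for Clec10a). The 3 DCIR relatives were closest, at 65.0% to 69.8%. Clec4n shared 57.1% of bases with Clec4d, 56.5% with Clec4e and 57.4% with Clec4a3, and Clec4d shared 57.7% with Clec4e. Clec4n was about as close to Clec4a3, whose groups overlapped, and to Clec4e, which was lower, as to Clec4d, which was higher. Whether sequence likeness bears on the measured levels was not tested.

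Other cell states were recorded beside these levels. For the counts that follow, 4.24% of all genes were past the limit as higher and 7.28% as lower. Each of the 8 osteoclast markers tested, of 9 listed, was past the limit in the lower direction (limma), with summed levels of 758 to 811 FPKM with DMSO and 435 to 452 FPKM with DASA-58. Of 9 macrophage markers, Adgre1, Cd68 and Mertk were higher, Cd14 was lower and 5 were not past the limit, and their sum was 16493 to 17338 FPKM with DMSO and 17428 to 19734 FPKM with DASA-58. Of 9 tested neutrophil markers, S100a8, S100a9, Ngp and Camp were lower, Mmp8 was higher and 4 were not past the limit, with summed levels of 181 to 185 FPKM and 147 to 153 FPKM. Ly6g, which defines neutrophils, was at a mean of 0.038 FPKM with DMSO and listed at 0 in all DASA-58 libraries. Of 5 tested monocyte markers Cx3cr1 was lower and 4 were not past the limit, with sums of 36.5 to 40.0 FPKM and 33.3 to 35.5 FPKM. The lists for other cells gave sums of 1.52 to 1.61 and 1.45 to 1.52 FPKM for dendritic cells, 0.989 to 1.77 and 0.98 to 1.49 FPKM for T and NK cells, 1.71 to 2.04 and 2.09 to 2.38 FPKM for B cells, and 34.3 to 36.4 and 34.7 to 35.8 FPKM for stromal cells, with DMSO and DASA-58 in that order. No gene of the first 2 of these lists reached the filter, and the 1 B cell and 3 stromal genes tested were not past the limit. The part of these differences in the receptor levels was not tested. In bulk RNA a change in the number of cells that express a gene and a change in its RNA per cell cannot be told apart.

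Further C-type lectin genes were examined from a list chosen with earlier results of these data known, so nothing is read from its shares. It held 46 genes, of which 35 were in the table and 9 averaged 1 FPKM or more. Of these 9, 4 passed the limit as higher and 2 as lower (limma), against 4.24% and 7.28% of all genes, and 3 of these 6 calls were lost in most alternatives. Mrc1, the macrophage mannose receptor and the most abundant of them, rose from 67.3 ± 2.57 to 87.8 ± 3.93 FPKM (log2 fold change 0.38, standard error 0.042, adjusted p = 0.0016, limma). Cd93 rose from 43.7 ± 0.950 to 52.3 ± 0.681 FPKM (log2 fold change 0.25, adjusted p = 0.0018, limma), and Cd72, an inhibitory receptor, fell from 39.2 ± 1.41 to 33.5 ± 0.660 FPKM (log2 fold change -0.22, adjusted p = 0.0078, limma; SD, n = 3 each). The remaining calls were small and were lost in most alternatives, some of them with all 6 libraries kept. Cd302 was at 0.14 (adjusted p = 0.049, limma), and Colec12 and Clec2d, named after their values were seen, were at 0.15 and -0.11 on the log2 scale. The adjusted p of Clec2d, 0.049997 (limma), was just under the limit. Cd302 was past the limit in 6 of 16 alternatives, Colec12 in 5 of 15 and Clec2d in 4 of 16. The call of Colec12 ended without any 1 of the 6 libraries, that of Cd302 without any library but DMSO replicate 2 and that of Clec2d without any but DMSO replicate 3, with adjusted p between 0.056 and 0.15 (limma).

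The adaptors of the activating receptors were abundant. Fcer1g stood at 459 ± 29.9 in the DMSO and 510.2 ± 17.7 FPKM in the DASA-58 libraries, and Tyrobp at 884 ± 31.3 and 959 ± 37.5 FPKM (SD, n = 3 each). Neither passed the limit (adjusted p = 0.080 and 0.086, limma), and the groups overlapped for both. Fcer1g was past the limit in 4 of 16 alternatives, without DMSO replicate 2 (adjusted p = 0.014, limma, log2 fold change 0.21), at a filter of 5 FPKM (0.047), after quantile normalization (0.037) and with voom weights (0.0027), and its adjusted p ranged up to 0.25. Tyrobp was past it in 2, after quantile normalization (adjusted p = 0.042, limma) and with voom weights (0.0087), with a range up to 0.31. Syk was at 39.0 ± 1.31 and 38.4 ± 1.16 FPKM (log2 fold change -0.024, adjusted p = 0.72, limma).

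Among the 18 activating adaptors and kinases, all of them tested, 2 were higher, 1 was lower and 15 were not past the limit. Of all genes tested, 4.24% were higher and 7.28% lower. The groups did not overlap for 4 higher and 2 lower of the 18, against 11.8% and 21.6% of all genes. Src, a kinase that osteoclasts need for bone resorption, fell from 22.7 ± 0.812 to 15.2 ± 0.627 FPKM (log2 fold change -0.55, standard error 0.043, adjusted p = 3.4e-04, limma). Lyn rose from 40.04 ± 1.30 to 45.8 ± 0.688 FPKM (log2 fold change 0.19, adjusted p = 0.011, limma). Pik3cg had a log2 fold change of 0.18 (adjusted p = 0.033, limma), which was past the limit in 7 of 16 alternatives and not without DMSO replicate 1, 2 or 3 or DASA-58 replicate 2 or 3 (adjusted p 0.055 to 0.096).

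In the CARD9 module and the NF-kB arm 2 of 18 genes were lower, where 7.28% of all genes were, and 16 were not past the limit. All DASA-58 libraries lay below all DMSO libraries for 9 of the 18 genes, against 21.6% of all genes. They lay above for 1, against 11.8%. The summed level of the list was 370 to 375 FPKM with DMSO and 344 to 355 FPKM with DASA-58. Malt1, the paracaspase that joins CARD9 and BCL10, fell from 7.06 ± 0.364 to 4.52 ± 0.375 FPKM (log2 fold change -0.55, standard error 0.063, adjusted p = 0.0018, limma), whereas Card9 was at 35.9 ± 0.716 and 35.2 ± 1.67 FPKM (adjusted p = 0.66, limma; SD, n = 3 each). Nfkb2 had a log2 fold change of -0.16 (adjusted p = 0.017, limma), a call that was not kept without DMSO replicate 1 or DASA-58 replicate 1 or 3 (adjusted p 0.055 to 0.065). It was also lost without trend (adjusted p = 0.059, limma). In the inhibitory arm of phosphatases and docking proteins, Dok3 alone of 12 genes was past the limit (log2 fold change -0.17, adjusted p = 0.033, limma). It was lower, where 7.28% of all genes were. The groups did not overlap for 0 higher and 1 lower of these 12 genes, against 11.8% and 21.6% of all genes. Without any 1 library except DMSO replicate 3, Dok3 was not past the limit (adjusted p 0.053 to 0.099). With all libraries, it was also not past it after quantile normalization (adjusted p = 0.060, limma) and after centring on the median (0.062). The same held without trend (0.073) and without a filter on low values (0.093).

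Of 23 genes that such receptors are known to induce, 12 had a mean below 1 FPKM, among them Il1b, Il6, Il12b and Il23a, named after their values were seen. Of the 11 tested, 5 were lower, where 7.28% of all genes were, and 6 were not past the limit. Among these 6 were Tnf, at 3.89 to 5.37 FPKM with DMSO and 5.82 to 6.34 with DASA-58 (log2 fold change 0.34, adjusted p = 0.054, limma), and Il10 (0.18, adjusted p = 0.15), named after their values were seen, whose DASA-58 libraries all lay above the DMSO libraries. Of the 11 tested genes, the groups did not overlap for 2 higher and 5 lower, against 11.8% and 21.6% of all genes. Il1rn, the antagonist of interleukin-1, fell from 15.1 ± 0.606 to 8.92 ± 0.480 FPKM (log2 fold change -0.70, adjusted p = 2.1e-04, limma), Egr2 from 2.67 ± 0.149 to 1.39 ± 0.0817 FPKM (-0.62, adjusted p = 0.0014) and Nfatc1, the main transcription factor of osteoclasts, from 20.8 ± 1.02 to 15.0 ± 0.580 FPKM (-0.45, adjusted p = 0.0012; SD, n = 3 each). The other 2, Egr1 and Ccl2, were named after their values were seen, with log2 fold changes of -0.55 and -0.52. The call of Ccl2 was not kept without DMSO replicate 1 or 2 or DASA-58 replicate 1 or 2 (adjusted p 0.051 to 0.070, limma). It was also lost without a filter on low values (adjusted p = 0.089, limma).

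Of 14 tested transcription factors active in myeloid cells, 3 were higher, 3 were lower and 8 were not past the limit. The groups did not overlap for 7 higher and 4 lower of the 14, against 11.8% and 21.6% of all genes. Cebpa rose from 33.2 ± 1.79 to 44.5 ± 0.860 FPKM (log2 fold change 0.42, adjusted p = 0.0012, limma) and Maf from 33.2 ± 1.08 to 38.5 ± 0.456 FPKM (0.21, adjusted p = 0.0073). Bhlhe40 fell from 14.1 ± 0.745 to 7.61 ± 0.113 FPKM (-0.81, adjusted p = 7.0e-05; SD, n = 3 each). The other 3 were named after their values were seen. Spi1, which encodes PU.1, was at 256 ± 5.01 and 232 ± 2.96 FPKM (log2 fold change -0.14), Klf4 was at -0.27 and Nfe2l2 at 0.17. The call of Spi1 was not kept without DMSO replicate 1 or DASA-58 replicate 1 or 2, and that of Nfe2l2 not without any 1 library except DMSO replicate 3 (limma, adjusted p 0.050 to 0.083). With all libraries, the call of Spi1 was also lost after quantile normalization (adjusted p = 0.058, limma) and without trend (0.063). That of Nfe2l2 was also lost without trend (0.061) and without a filter on low values (0.065). Over these 5 lists, 5 of 73 tested genes were higher and 12 lower, with a median log2 fold change of -0.025, against 4.24% and 7.28% of all genes and a median of -0.028. The lists were chosen with earlier results of these data known, so nothing is read from these shares. Without DMSO replicate 1, 11 of the 73 were past the limit in place of 17.

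**Figure D5:**
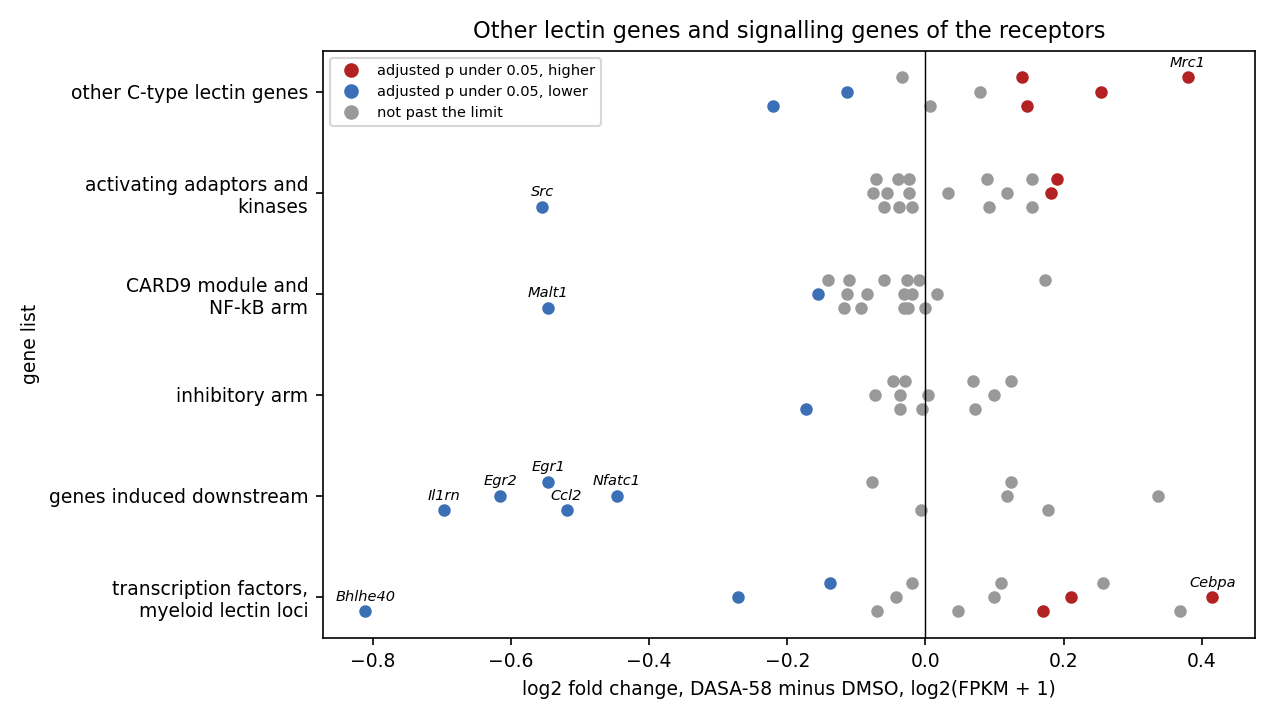
Log2 fold change (DASA-58 minus DMSO, on log2(FPKM + 1)) of the tested genes of 6 lists, 1 point for each gene, red for higher and blue for lower at an adjusted p under 0.05 and grey for the rest. Src (-0.55), Malt1 (-0.55), Il1rn (-0.70) and Bhlhe40 (-0.81) lie farthest to the left of their lists, and Mrc1 (0.38) and Cebpa (0.42) farthest to the right.

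The genes with the pattern most like that of Clec4n were sought by Pearson's r of log2(FPKM + 1) over the 6 libraries, as a description. They were Gclm, Cat, Stk17b, Ampd3 and Slc40a1, with r between 0.997 and 0.999 over 6 libraries in 2 groups, so that r mainly follows the difference between the groups. Gclm went from 38.8 ± 0.928 to 66.3 ± 1.89 FPKM and Slc40a1 from 10.2 ± 0.258 to 18.5 ± 0.642 FPKM (SD, n = 3 each). Their log2 fold changes of 0.76 and 0.80 were close in size to that of Clec4n, while those of Cat (0.71), Ampd3 (0.37) and Stk17b (0.33) were smaller.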

How the data were processed

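The 6 RNA-seq libraries came from BMMs given DASA-58 (3) or DMSO (3). The authors deposited FPKM values in 1 table, and the submitters' processing notes name HISAT2 2.1.0, HTSeq 0.6.0 and the build mm8, without the annotation, counting mode or use of strand. With exon lengths of GENCODE mouse release 21 (GRCm38), 90.9% of the genes gave whole fragments (within 0.02) in all libraries, so lengths, symbols and coordinates come from that release and not from the deposited file. Fragment numbers state precision and cover counting error only. The value columns all matched a label, and 0 were left unmapped.

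Groups were compared with limma 3.58.1 (R 4.3.3) on log2(FPKM + 1), with a pseudocount of 1, for genes averaging 1 FPKM or more, by lmFit and trended eBayes and Benjamini-Hochberg adjustment over all genes fitted, with a limit of 0.05. Fold changes on this scale understate those of low genes. The statistics were tested on simulated data. The members and the lists were chosen with earlier results of these data known. Named beside the receptors were the 3 genes with the smallest p past the limit in each list, Fcer1g, Tyrobp, Syk, Card9 and Pkm, the 3 other lectin genes with the highest mean and the 5 genes most like Clec4n. Alternatives were pseudocounts of 0.1 and 5, other filters on low values, other scalings, eBayes without trend, voom weights on recovered fragments, a block for the replicate number, and leaving out each library in turn. Sequences were aligned with Biopython 1.88.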

Additional observations from a re-analysis of the deposited data

How the results depend on the processing

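Clec4n, Clec4d and Clec4e were past the limit in 16 of 16 alternatives, with log2 fold changes of 0.83 to 0.89, 0.39 to 0.45 and -0.37 to -0.25. The set was assembled with the rise of Clec4n on this contrast known, so this describes the fits and is no evidence for the set. Leaving out 1 library at a time gave 0.84 to 0.89 for Clec4n, 0.39 to 0.42 for Clec4d and -0.37 to -0.29 for Clec4e. Clec4a1 was called in 9 of 16 and Clec7a only with voom weights, and the cause was not tested. Malt1, Nfkb2, Nfatc1 and Colec12, without whole fragments, had no voom value, and Egr1 and Egr2 none at the filter of 5 FPKM. Without a filter on low values 257 genes were higher and 372 lower, with more genes tested, and without a trend 515 were lower. After centring on the median 504 were lower. With each library left out in turn, 272 to 375 genes were higher and 387 to 603 lower, and 11 to 16 partner genes were past the limit, all from fewer samples, and the counts fell by over 1.5 times without DMSO replicate 1 or any 1 DASA-58 replicate (282, 272, 296 and 276 higher, 387, 413, 467 and 400 lower). Same-numbered libraries did not deviate together (r = -0.015, 0.016 and -0.016), and neither did differently numbered ones (r from -0.046 to 0.061). Such small values show no shared deviation but cannot tell whether libraries were paired by culture or animal. With the replicate number as a block, 378 genes were higher and 579 lower, 2 receptors were higher and 1 lower, and 16 partner genes were past the limit. The 3 libraries of a group limit the precision, and that of Clec10a was lowest among the receptors (standard error 0.090).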
